A study of Saccharomyces cerevisiae with 10 samples.

Results

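The expression data described here form a 2 by 2 factorial of 2 evolved alleles, MDS3e of the gene MDS3 and MKT1e of the gene MKT1, in haploid Saccharomyces cerevisiae, and the quantity reported is the interaction of the MDS3e and MKT1e alleles. The interaction is the effect of MKT1e in the strain that carries MDS3e, minus its effect in the ancestral strain, on log2 of the array intensity plus 16. It is 0 where the effects of the alleles add on that scale, above 0 where the strain with both alleles lies higher than the sum, and below 0 where it lies lower. The 8 arrays of the factorial, of 10 in the series, hold 2 arrays each of the Ancestral, MKT1e, MDS3e and MDS3e MKT1e genotypes. The remaining 2 arrays, of a PMA1e MKT1e strain, entered the estimate of the spread only, and their levels are quoted for comparison. All 5449 S. cerevisiae genes measured were tested for the interaction.

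Every strain was a haploid of the genetic background Sce3044 and lacked every evolved allele other than those in its name. The labels do not give the base changes of the alleles, whether a genotype was 1 clone, or how many clones were used. Overnight cultures in rich medium were used to inoculate a defined medium with 0.25% dextrose and uracil but no amino acids, and cells were taken in logarithmic growth once the optical density had reached roughly 0.2 (17 h or so). The 2 arrays of a genotype are labelled as biological replicates, with no account of whether they came from separate colonies, so p-values measure the spread between these cultures.

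MKT1 encodes a cytoplasmic protein that acts with the poly(A)-binding protein partner Pbp1 and is known for a part in the posttranscriptional control of nuclear-encoded mitochondrial messages, and natural alleles of it are known to affect many traits. MDS3 is known as a negative regulator of early meiotic genes with a part in nutrient signalling. In a factorial of this kind the interaction separates genes that respond to one allele in the same way whether or not the other allele is present from genes whose response depends on it.

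The median level of the 5449 genes lay between 7.51 and 7.61 on the log2 scale, the replicate arrays of each genotype correlated at 0.996 to 0.998 across genes, and 5358 to 5379 genes an array lay above the background limit of 4.15. That limit is the 95th percentile of the probe sets on the array for another yeast species. All 8 arrays had the a-factor gene MFA1 at 9.76 to 10.50 and the alpha-factor receptor gene STE2 at 10.62 to 10.92, both markers of the a mating type. The alpha-factor genes MF(ALPHA)1 and MF(ALPHA)2 lay at 4.02 to 4.47 and 4.25 to 4.50, near the background limit. The other markers of the alpha type lay above it: STE3 at 5.29 to 5.56, AFB1 at 6.05 to 6.39 and SAG1 at 6.43 to 6.71. Among the sporulation markers the meiosis gene SPO13 was the dimmest, at 4.19 to 4.32. IME1 lay at 5.32 to 5.94 and SPS4 at 5.80 to 6.55. The brightest probe set read 2398 to 2602 intensity units on the 4 arrays with MDS3e and 3042 to 3479 on the 4 without, and the part of this in the results was tested only by normalization. After quantile normalization, which gives all arrays 1 distribution, 22 genes passed the interaction test, 19 of them among the 21 described here. The number of arrays limits the precision: the median standard error of an interaction was 0.094, and 95.7% of the genes had a 95% interval of the interaction that lay within 1.5-fold in either direction.

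For most of the genome the alleles added. The interaction passed the test in 21 of 5449 genes (0.385%, limma moderated test, Benjamini-Hochberg adjusted p under 0.05). Of these, 17 genes (0.312%) lay lower in the MDS3e MKT1e strain than the sum of the single-allele effects, and 4 genes (0.0734%) lay higher. At an unadjusted p under 0.05 there were 387 genes (7.10%). Without MDS3e MKT1e replicate 2 or without MDS3e replicate 2 the count fell to 13. The 4 higher calls fell to 1 without MDS3e MKT1e replicate 1, without MDS3e MKT1e replicate 2 or without MKT1e replicate 1, fell to 2 without MDS3e replicate 2, and rose to 7 without Ancestral replicate 2. The lower calls fell to 11 without MDS3e replicate 2. Additivity here is on the log2 scale, where equal folds add. On the linear scale, where intensities add, 34 genes passed, 17 of them among the 21.

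Across all genes the median interaction was 0.00, the middle 50% ran from -0.07 to 0.08, and the median size was 0.073. An interaction of 2-fold or more was measured for 3 genes, each of which passed the test: the transketolase gene TKL2, the seripauperin gene PAU4 and YGR109W-A, which encodes the Gag protein of the Ty3 retrotransposon. The 4 differences between an MDS3e MKT1e array and an MDS3e array did not overlap the 4 between an MKT1e array and an Ancestral array in any of the 21 genes. The same held for 1003 of all genes (18.4%).

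MKT1e moved expression in largely the same way in both backgrounds. Its effect passed the test for 1104 genes in the ancestral background and 937 in the MDS3e background. Of 641 genes called in both, 638 moved in the same direction and 3 in opposite directions. Those 3 were the ribonuclease H2 subunit gene RNH203, the subtelomeric gene YLL066W-B and YNL195C, whose function is not known, and they were named after their values were seen. The interaction of RNH203, -0.40, did not pass (limma adjusted p = 0.084). The 2 effects of MKT1e rest on different arrays and correlated at 0.81 across 5449 genes, which are not independent replicates. The effect of MDS3e passed for 1375 genes without MKT1e and 1440 with it. Of 896 called in both, 893 moved in the same direction, and the 3 exceptions, also named after their values were seen, were MAK31, VPS4 and YLL066W-B. The interaction of VPS4, 0.43, did not pass (limma adjusted p = 0.072). The 2 effects of MDS3e correlated at 0.84 over the same 5449 genes. In 332 genes each allele alone passed the test against Ancestral, and 10 of these had an interaction that passed, against 0.385% of all genes. Both single effects and the interaction use the same Ancestral arrays, so this count is not independent of how the genes were picked.

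**Figure D1:**
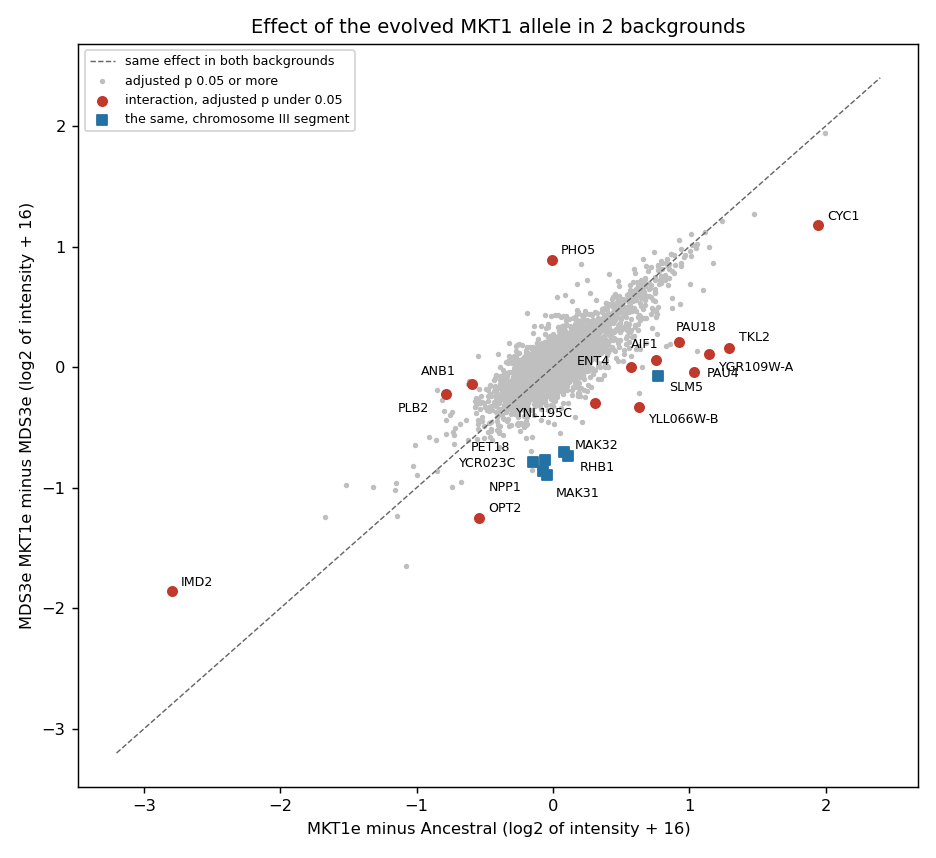
The effect of MKT1e in the ancestral background (horizontal axis) is plotted against its effect in the MDS3e background (vertical axis), both as differences of log2 of intensity plus 16, with 1 point for each of 5449 genes and the dashed line at equal effects. The 21 genes that passed the interaction test are named, and 17 of them lie under the line, among them a cluster of genes from 1 segment of chromosome III.

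Some of the large effects of the alleles had an interaction that did not pass, and others, such as those of MKT1e on IMD2 and CYC1, had an interaction that passed and are described with the called genes. The flavohaemoglobin gene YHB1, which detoxifies nitric oxide, read 7.81 and 7.73 in the Ancestral arrays, 9.01 and 9.01 in MKT1e, 8.87 and 8.92 in MDS3e, and 10.10 and 10.12 in MDS3e MKT1e. The level in the strain with both alleles lay above every other array of the factorial, at the additive expectation of 10.13. Its interaction was -0.02 (95% interval -0.28 to 0.23). The membrane protein gene YRO2 rose with MKT1e by 2.00 in the ancestral background and by 1.94 in the MDS3e background, with an interaction of -0.06 (95% interval -0.45 to 0.33). The sodium-phosphate cotransporter gene PHO89 had an interaction of -0.05 (95% interval -0.36 to 0.26), after a rise with MDS3e of 2.84 without MKT1e and 2.79 with it. The mitochondrial ribosomal protein gene MRPL4 rose with MKT1e by 1.12 in either background, with an interaction of 0.00 (95% interval -0.18 to 0.19). These 4 genes were chosen after their values were seen, as examples of large effects that passed in both backgrounds. On the linear scale the interaction passed for YHB1 (302.8 intensity units, adjusted p = 0.012) and PHO89 (137 units, adjusted p = 0.0026) and not for YRO2 (adjusted p = 0.23) or MRPL4 (adjusted p = 0.86).

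The genes that carry the evolved alleles had no called interaction. MKT1 read 9.13 and 8.73 in Ancestral, 8.65 and 8.51 in MKT1e, 9.04 and 9.02 in MDS3e, and 8.80 and 8.81 in MDS3e MKT1e. Its interaction was 0.13 ± 0.15 (SE, limma adjusted p = 0.93), and it was -0.07 without Ancestral replicate 1. The interaction of MDS3 was 0.11 ± 0.08 (adjusted p = 0.88). That of PMA1, the plasma membrane proton pump gene that carries no evolved allele in the factorial, was -0.06 ± 0.07 (adjusted p = 0.93), and its sign turned to 0.0079 after quantile normalization. The arrays measure the amount of these transcripts and not which allele they come from.

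Of the 21 genes, 7 were neighbours on chromosome III, and all 7 lay lower in the MDS3e MKT1e strain than the sum. In the order of the R64 annotation they were MAK32, PET18, MAK31, YCR023C, SLM5, NPP1 and RHB1. MAK31 encodes a subunit of the N-terminal acetyltransferase NatC, and it and MAK32 are known for the maintenance of the L-A double-stranded RNA virus. SLM5 encodes the mitochondrial asparaginyl-tRNA synthetase, NPP1 a nucleotide pyrophosphatase, RHB1 a Rheb-like GTPase, and YCR023C an uncharacterised membrane protein. The interactions of the 7 ran from -0.85 to -0.64, and they made up 33.3% of all calls.

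MAK31 read 8.99 and 8.99 in the Ancestral arrays, 8.98 and 8.91 in MKT1e, 9.16 and 9.24 in MDS3e, and 8.25 and 8.35 in MDS3e MKT1e. Only the strain with both alleles was low, and its arrays did not overlap with any other genotype. The interaction was -0.85 ± 0.08 (SE, limma adjusted p = 0.0014). NPP1 read 7.41 and 7.31 in Ancestral, 7.30 and 7.26 in MKT1e, 7.37 and 7.35 in MDS3e, and 6.44 and 6.55 in MDS3e MKT1e. Again the strain with both alleles lay apart from the other 6 arrays, which spanned a narrow range. The interaction was -0.79 ± 0.08 (adjusted p = 0.0020).

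PET18 read 7.50 and 7.46 in Ancestral, 7.31 and 7.35 in MKT1e, 7.28 and 7.26 in MDS3e, and 6.47 and 6.49 in MDS3e MKT1e, with an interaction of -0.64 ± 0.07 (limma adjusted p = 0.0026). MAK32 read 7.44 and 7.49, 7.55 and 7.54, 7.65 and 7.61, and 6.89 and 6.95 in the same order, with an interaction of -0.78 ± 0.08 (adjusted p = 0.0014). In both genes the arrays of the MDS3e MKT1e strain were the lowest of the 8. RHB1 read 7.71 and 7.67, 7.78 and 7.81, 7.89 and 7.68, and 7.01 and 7.08, with an interaction of -0.84 ± 0.10 (adjusted p = 0.0046). YCR023C read 8.38 and 8.33, 8.35 and 8.23, 8.34 and 8.37, and 7.60 and 7.56, with an interaction of -0.71 ± 0.09 (adjusted p = 0.0050). The other 6 arrays of each of these genes lay together and above the strain with both alleles.

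SLM5 differed from its neighbours. It read 7.52 and 7.44 in Ancestral, 8.28 and 8.22 in MKT1e, 7.47 and 7.46 in MDS3e, and 7.42 and 7.36 in MDS3e MKT1e. It rose with MKT1e by 0.77 in the ancestral background, and the MDS3e MKT1e arrays were not above those of Ancestral or MDS3e. Its interaction was -0.84 ± 0.08 (limma adjusted p = 0.0014).

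The run of low genes was bounded by tRNA genes in the R64 annotation. Between the tRNA genes that follow SRD1 and the tRNA gene that precedes FEN2 lie 13 annotated protein-coding genes, of which 11 were measured. All 11 had an interaction below 0, with a median of -0.71, beside 0.00 over all genes. In 10 of the 11 both MDS3e MKT1e arrays lay below the other 6 arrays of the factorial, beside 429 of all genes (7.87%). The exception was HTL1, which encodes a subunit of the chromatin remodeller RSC and whose replicates were far apart, at 6.73 and 6.07 in Ancestral. The 4 segment genes not called were HTL1 at -0.70 (adjusted p = 0.58), the plasma membrane stress protein gene HSP30 at -0.57 (adjusted p = 0.055), the proteolipid gene PMP1 at -0.16 (adjusted p = 0.84) and the small open reading frame YCR024C-B at -0.20 (adjusted p = 0.84). The segment was marked out after the calls were seen, so its count is a description.

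The genes on either side did not move with it. The 4 measured genes before the segment had interactions from -0.10 to 0.18, the 5 measured genes after it ran from -0.06 to 0.18, and 0 of the 9 passed the limma test or had a 95% interval that left out 0. The median of a window of 9 neighbouring genes was lowest at SLM5, at -0.71. Away from the segment the lowest window median in the genome was -0.25 and the highest 0.20, and the medians of the 16 chromosomes ran from -0.03 to 0.01. The median level of the measured segment genes was 7.80 in PMA1e MKT1e, beside 7.48 in Ancestral and 7.05 in MDS3e MKT1e. In the PMA1e MKT1e arrays MAK31 read 8.94 and 8.90, and PET18 7.50 and 7.54. HTL1, at 6.07 and 6.11, and PMP1, at 10.52 and 10.64, overlapped there with MDS3e MKT1e. The MDS3e MKT1e arrays read 5.99 and 6.12 for HTL1 and 10.50 and 10.57 for PMP1. With the segment left out of the fit, an alternative added after the data were seen, 11 of the 14 other calls passed and ANB1, OPT2 and PAU4 did not. Copy number of the segment in these strains was not measured, and fewer copies and less RNA per copy cannot be told apart. Nor can a lower level in every cell of a culture and a lower level in some of its cells. Any other difference of the MDS3e MKT1e strain cannot be told apart from an interaction of the alleles.

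**Figure D2:**
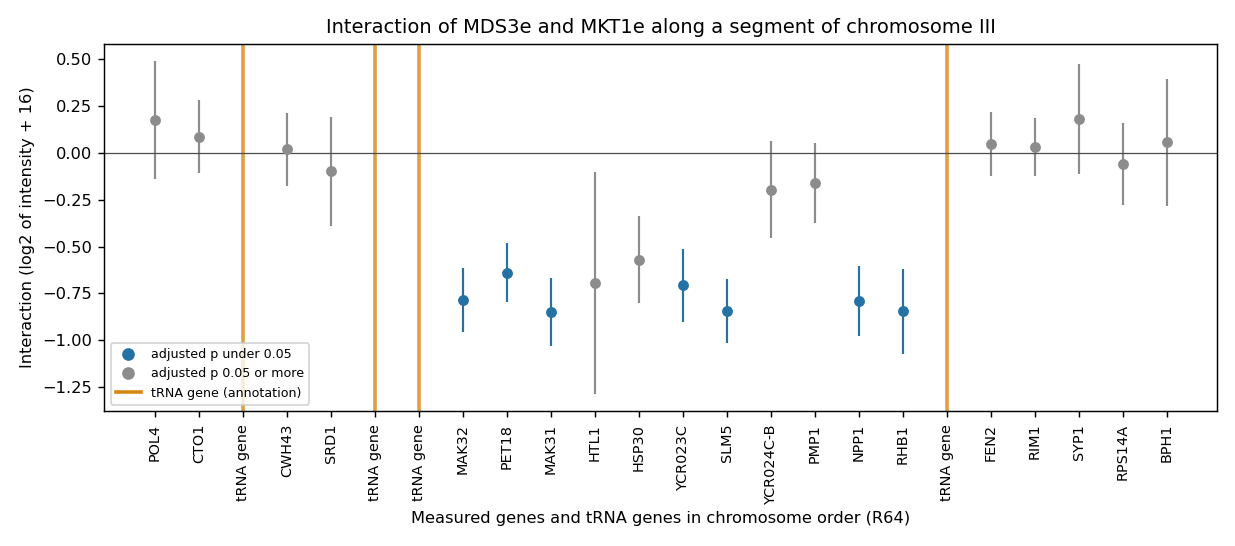
The interaction (points) with its 95% interval (bars), in log2 of intensity plus 16, is plotted for the measured genes of a segment of chromosome III and for its neighbours in the order of the R64 annotation, with tRNA genes as vertical lines. The 7 called genes lie between -0.85 and -0.64, and the 9 neighbours outside the tRNA genes lie between -0.10 and 0.18.

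Among the 14 called genes outside the segment, TKL2 and YGR109W-A rose with MKT1e in the ancestral background, and its effect on them did not pass in the MDS3e background. TKL2, which encodes a minor transketolase of the pentose phosphate pathway, read 5.21 and 5.41 in Ancestral, 6.68 and 6.52 in MKT1e, 4.49 and 4.44 in MDS3e, and 4.63 and 4.62 in MDS3e MKT1e. MKT1e raised it by 1.29 in the ancestral background, and its effect in the MDS3e background was 0.16 (95% interval -0.04 to 0.36). The interaction was -1.13 ± 0.13 (SE, limma adjusted p = 0.0033). The PMA1e MKT1e arrays read 6.85 and 7.09, above MKT1e. YGR109W-A, the Ty3 Gag gene, read 5.17 and 5.04, 6.32 and 6.17, 5.26 and 5.21, and 5.27 and 5.40 in the same order of genotypes. Its 2 MKT1e arrays lay alone above the other 6, and its probe set may also read related Ty3 copies. The interaction was -1.03 ± 0.10 (adjusted p = 0.0014).

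The phospholipase B gene PLB2 fell with MKT1e in both backgrounds, with an effect of -0.78 in the ancestral background and -0.22 in the MDS3e background. It read 8.41 and 8.37 in Ancestral, 7.55 and 7.66 in MKT1e, 8.32 and 8.36 in MDS3e, and 8.12 and 8.12 in MDS3e MKT1e. The strain with both alleles lay between MKT1e and the other genotypes without overlap. The interaction was 0.56 ± 0.08 (limma adjusted p = 0.011), and it passed in 5 of 10 fits that left out an array. IMD2, which encodes an isoform of IMP dehydrogenase, the enzyme at the first step towards GTP, read 8.18 and 8.04 in Ancestral, 5.27 and 5.36 in MKT1e, 8.69 and 8.35 in MDS3e, and 6.64 and 6.68 in MDS3e MKT1e. The effect of MKT1e was -2.80 in the ancestral background and -1.86 in the MDS3e background, for an interaction of 0.94 ± 0.14 (adjusted p = 0.013). The probe set is shared with related genes. The interaction had the opposite sign on the linear scale, at -22.8 intensity units, and did not pass there. With 64 in place of 16 added it was 0.41 and did not pass (adjusted p = 0.37), and it passed in 7 of 10 fits that left out an array. The related genes IMD3 and IMD4 had interactions of 0.10 and -0.14 that did not pass.

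In a further group each allele alone moved the gene in the same direction, and the strain with both alleles was at or near the level of a single allele. AIF1, named for a mitochondrial cell death effector, read 6.82 and 6.65 in Ancestral, 7.48 and 7.51 in MKT1e, 7.63 and 7.60 in MDS3e, and 7.67 and 7.67 in MDS3e MKT1e. It rose by 0.76 with MKT1e and by 0.88 with MDS3e, and the additive expectation was 8.38. Both MDS3e MKT1e arrays lay below that expectation and above the single-allele arrays by little. The interaction was -0.70 ± 0.09 (SE, limma adjusted p = 0.0048). CYC1, which encodes the main cytochrome c isoform, read 7.95 and 8.13 in Ancestral, 9.98 and 9.99 in MKT1e, 8.77 and 8.82 in MDS3e, and 10.01 and 9.93 in MDS3e MKT1e. MDS3e raised it by 0.75 without MKT1e, and in the presence of MKT1e its effect was -0.01 (95% interval -0.18 to 0.16). The interaction of CYC1 was -0.76 ± 0.11 (adjusted p = 0.012), which passed in 6 of 10 fits that left out an array and did not pass on the linear scale (adjusted p = 0.16).

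ENT4, which encodes an epsin-like protein, read 4.78 and 4.80 in Ancestral, 5.41 and 5.31 in MKT1e, 5.25 and 5.37 in MDS3e, and 5.32 and 5.31 in MDS3e MKT1e. The 3 genotypes with an evolved allele overlapped, and all of their arrays lay above Ancestral, for an interaction of -0.56 ± 0.08 (limma adjusted p = 0.016). With 64 added it was -0.23 and did not pass (adjusted p = 0.18), with 1 added it was -1.03 and passed, and it passed in 6 of 10 fits that left out an array. PAU18 and PAU4 belong to the seripauperins, a family of cell wall mannoprotein genes with near-identical copies, and their probe sets may read several copies. PAU18 read 6.39 and 6.29 in Ancestral, 7.19 and 7.34 in MKT1e, 7.10 and 7.08 in MDS3e, and 7.34 and 7.24 in MDS3e MKT1e. It rose by 0.93 with MKT1e and by 0.75 with MDS3e, and by 0.95 with both, for an interaction of -0.72 ± 0.10 (adjusted p = 0.013) that passed in 6 of 10 fits without an array and not on the linear scale (adjusted p = 0.053). PAU4 rose by 1.04 with MKT1e, by 0.71 with MDS3e and by 0.67 with both, for an interaction of -1.08 ± 0.18 (adjusted p = 0.034). It read 6.86 and 6.65 in MKT1e, 6.44 and 6.42 in MDS3e, and 6.28 and 6.51 in MDS3e MKT1e. Its Ancestral arrays were far apart, at 5.52 and 5.92, below all of these, and the call was kept in 2 of 10 fits that left out an array. It was lost with 1 added (-1.36, adjusted p = 0.15) and with 64 added (-0.65, adjusted p = 0.065).

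ANB1, the hypoxic isoform of translation factor eIF5A and a chromosomal neighbour of CYC1, moved the other way. It read 6.05 and 6.08 in Ancestral, 5.45 and 5.49 in MKT1e, 5.56 and 5.63 in MDS3e, and 5.49 and 5.42 in MDS3e MKT1e. The Ancestral arrays were the highest, and the MKT1e and MDS3e MKT1e arrays overlapped. The interaction was 0.45 ± 0.08 (limma adjusted p = 0.048). That call was kept in 0 of 10 fits that left out an array and in 4 of 14 other settings.

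The remaining lower calls were YLL066W-B, YNL195C and OPT2. OPT2 was 1 of 3 called genes, with TKL2 and IMD2, whose single-allele effects both passed the test with opposite signs. YLL066W-B, a subtelomeric open reading frame with a probe set that may read related copies, read 5.94 and 5.88 in Ancestral, 6.54 and 6.54 in MKT1e, 6.44 and 6.52 in MDS3e, and 6.22 and 6.09 in MDS3e MKT1e. It rose with MKT1e by 0.63 in the ancestral background and fell by 0.33 in the MDS3e background. The strain with both alleles lay below either single-allele strain and above Ancestral, for an interaction of -0.96 ± 0.09 (SE, limma adjusted p = 0.0014). YNL195C read 5.88 and 5.97 in Ancestral, 6.17 and 6.30 in MKT1e, 5.69 and 5.78 in MDS3e, and 5.38 and 5.49 in MDS3e MKT1e. It rose with MKT1e by 0.30 and fell by 0.30 in the MDS3e background, for an interaction of -0.60 ± 0.10 (adjusted p = 0.028) that was kept in 2 of 10 fits without an array. OPT2, which encodes a peptide transporter of the plasma membrane and Golgi, read 5.24 and 5.02 in Ancestral, 4.56 and 4.62 in MKT1e, 6.58 and 6.49 in MDS3e, and 5.23 and 5.34 in MDS3e MKT1e. The MDS3e arrays stood highest, and the MDS3e MKT1e arrays overlapped with Ancestral, for an interaction of -0.71 ± 0.12 (adjusted p = 0.035) that was kept in 3 of 10 such fits. OPT2 is dim, and with 1 in place of 16 added its interaction was -0.55 and did not pass (adjusted p = 0.64). That of YNL195C was -0.33 with 64 added and did not pass (adjusted p = 0.086).

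PHO5 was the only called gene in which MKT1e had no called effect on its own and raised the level with MDS3e. PHO5 encodes the repressible acid phosphatase secreted by cells that lack phosphate. It read 6.62 and 6.59 in Ancestral, 6.56 and 6.64 in MKT1e, 8.18 and 8.12 in MDS3e, and 9.03 and 9.05 in MDS3e MKT1e. The strain with both alleles was the highest without overlap, and Ancestral and MKT1e overlapped. MKT1e changed PHO5 by -0.01 in the ancestral background, which did not pass the test, and raised it by 0.89 in the MDS3e background. The interaction was 0.90 ± 0.11 (SE, limma adjusted p = 0.0050), and it passed in 10 of 10 fits that left out an array and in 14 of 14 other settings.

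**Figure D3:**
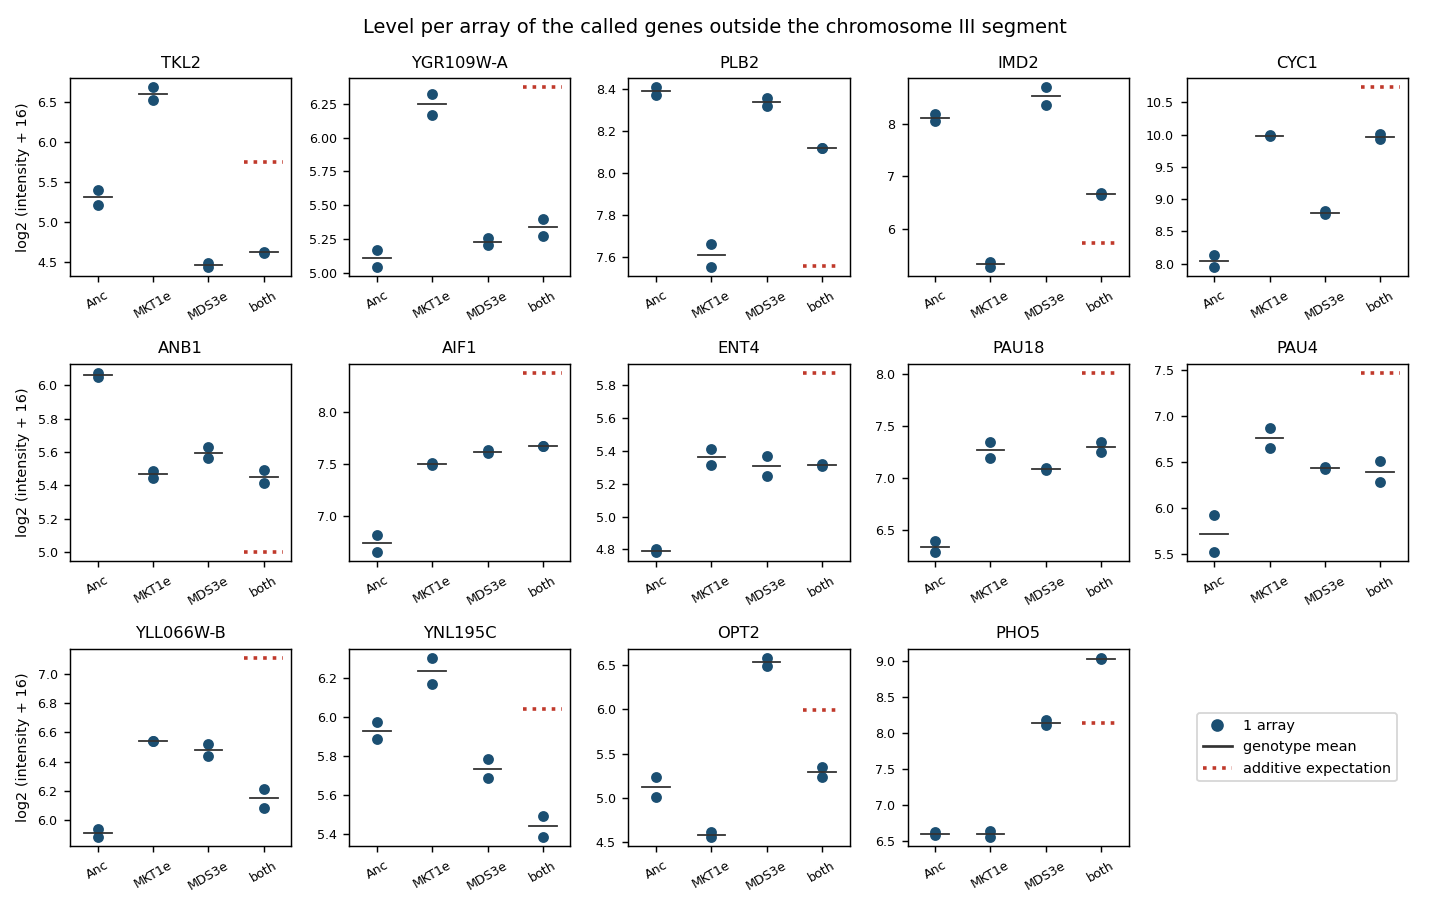
The level per array, as log2 of intensity plus 16, is plotted for the 14 called genes outside the segment, with 1 point an array, a bar at the mean of each genotype and a dotted line at the additive expectation for the strain with both alleles. In AIF1 the MDS3e MKT1e arrays, both at 7.67, lie under the expectation of 8.38, and in PHO5 they lie at 9.03 and 9.05, above the expectation of 8.14.

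The phosphate regulon, to which PHO5 belongs, is switched on by the factors Pho4 and Pho2 when the kinase inhibitor Pho81 blocks the Pho80-Pho85 kinase. Of 27 measured members of the list, 1 passed the test (PHO5), against 0.385% of all genes. Of the 27, 10 had an unadjusted p under 0.05, all of them higher, against 7.10% of all genes. Above 0 lay 22, against 50.5% of all genes. PHM7, PHO87, PHO89, PHO91 and PHO84 lay below 0. The median interaction was 0.17, which ran from 0.13 to 0.23 over fits that left out an array. PHO81 read 7.69 and 7.65 in Ancestral, 7.66 and 7.70 in MKT1e, 8.47 and 8.48 in MDS3e, and 8.90 and 8.91 in MDS3e MKT1e. As for PHO5, the Ancestral and MKT1e arrays overlapped, with MDS3e above them and MDS3e MKT1e the highest, and the interaction of 0.41 had an adjusted p of 0.051. The polyphosphate synthase gene VTC4 had an interaction of 0.42 (adjusted p = 0.31) and PHM6, a gene of unknown function in the regulon, 0.65 (adjusted p = 0.21). The high-affinity phosphate transporter gene PHO84 had an interaction of -0.03 (adjusted p = 0.99), so the members were not alike. Members of a list share the arrays and vary together, so these counts are not counts of independent tests.

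The general stress genes are controlled by the factors Msn2 and Msn4. Of 60 measured, 1 passed the test, the TKL2 described above, against 0.385% of all genes. At an unadjusted p under 0.05 there were 17, 16 of them lower, against 7.10% of all genes. Of the 60, 41 lay below 0 and 19 above, against 50.5% of all genes above 0. The list median of -0.10 ran from -0.16 to -0.03 over fits that left out an array. SIP18, a desiccation-tolerance hydrophilin gene, read 5.33 and 5.48 in Ancestral, 6.63 and 6.28 in MKT1e, 4.83 and 4.91 in MDS3e, and 5.03 and 4.97 in MDS3e MKT1e. Its 2 MKT1e arrays were above the other 6, as those of TKL2 were. The interaction of -0.92 did not pass (limma adjusted p = 0.084). SIP18 was dim on the arrays with MDS3e, where the added 16 shrinks differences. The cytosolic catalase gene CTT1 had an interaction of -0.46 (adjusted p = 0.31), and the heat-shock gene HSP26 one of -0.15 (95% interval -0.53 to 0.23).

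The genes of the pheromone response, which in a-type cells lead from the Ste2 receptor to mating, had no call. Of 31 measured, 10 had an unadjusted p under 0.05, all lower, against 7.10% of all genes. Of the 31, 28 lay below 0 and 3 above, against 50.5% of all genes above 0, and the median was -0.16, with a range of -0.19 to -0.11 over fits that left out an array. FUS1, a cell fusion gene, read 6.45 and 6.45 in Ancestral, 7.13 and 7.04 in MKT1e, 6.97 and 6.95 in MDS3e, and 6.95 and 7.26 in MDS3e MKT1e. Each evolved allele was accompanied by a higher level than Ancestral, and the strain with both overlapped with the single-allele strains. Its interaction of -0.49 did not pass (limma adjusted p = 0.21). SST2, which desensitizes cells to pheromone, had an interaction of -0.41 (adjusted p = 0.18), and PRM1, a membrane fusion gene, -0.66 (adjusted p = 0.31). The list holds 6 of the 7 markers of the a mating type, whose median was -0.23. The 5 markers of the alpha type had a median of -0.11, and 4 of them lay below 0. The 10 markers of haploid cells had a median of -0.01, and 4 of them lay above 0.

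The iron regulon, which the factor Aft1 controls, had no call among 32 measured genes. Of these 24 lay above 0, against 50.5% of all genes, and 10 had an unadjusted p under 0.05, 9 of them higher, against 7.10%. The median was 0.14. TIS11, which encodes an mRNA-destabilizing protein made in iron shortage, read 4.93 and 5.23 in Ancestral, 5.19 and 5.02 in MKT1e, 5.23 and 5.15 in MDS3e, and 5.79 and 5.74 in MDS3e MKT1e. The strain with both alleles stood above the other 6 arrays, which overlapped. The multicopper oxidase gene FET3 had an interaction of 0.45, and FIT2, a cell wall siderophore-binding protein gene, 0.44, and neither passed.

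The genes regulated by heme and oxygen held 2 calls, CYC1 lower and ANB1 higher, among 31 measured, against 0.385% of all genes called, and the call of ANB1 was kept in 0 of 10 fits that left out an array. Of the 31, 13 had an unadjusted p under 0.05, 4 higher and 9 lower, against 7.10% of all genes, with a median of -0.04. The nitrogen catabolite repression list had 1 call, OPT2, among 36 measured, against 0.385% of all genes. It had 12 genes with an unadjusted p under 0.05, 7 higher and 5 lower, against 7.10% of all genes. The allantoate permease gene DAL5 had an interaction of 0.43 and the repressor gene DAL80 one of 0.54, and neither passed. The respiratory chain and ATP synthase list, of 42 genes, had 1 call, CYC1, against 0.385% of all genes. Its median was -0.05, which was 0.03 after quantile normalization. The purine and guanine nucleotide list, of 26 genes, had 1 call, IMD2, against the same 0.385%.

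None of 73 mitochondrial ribosomal protein genes passed, and 0 had an unadjusted p under 0.05, against 7.10% of all genes. The 95% interval lay within 1.5-fold in all 73, against 95.7% of all genes. The median effect of MKT1e on them was 0.67 in the ancestral background and 0.65 in the MDS3e background. None of 128 cytosolic ribosomal protein genes passed, with 1 at an unadjusted p under 0.05, and the interval lay within 1.5-fold in 125. Among 136 ribosome biogenesis genes 0 passed, 7 had an unadjusted p under 0.05, and the interval lay within 1.5-fold in 132. Of the 136, 104 lay below 0, where 50.5% of all genes lay above 0. Their interactions ranged from -0.44 to 0.45. The median of -0.06 ran from -0.11 to -0.0027 over fits that left out an array. Of all 33 lists, 6 held a called gene and 27 did not. List medians ran from -0.16 to 0.17, and 28 of them lay within 0.06 of 0. Of the 21 calls, 6 were on a list and 15 on none, where 1172 of all 5449 genes were on a list.

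**Figure D4:**
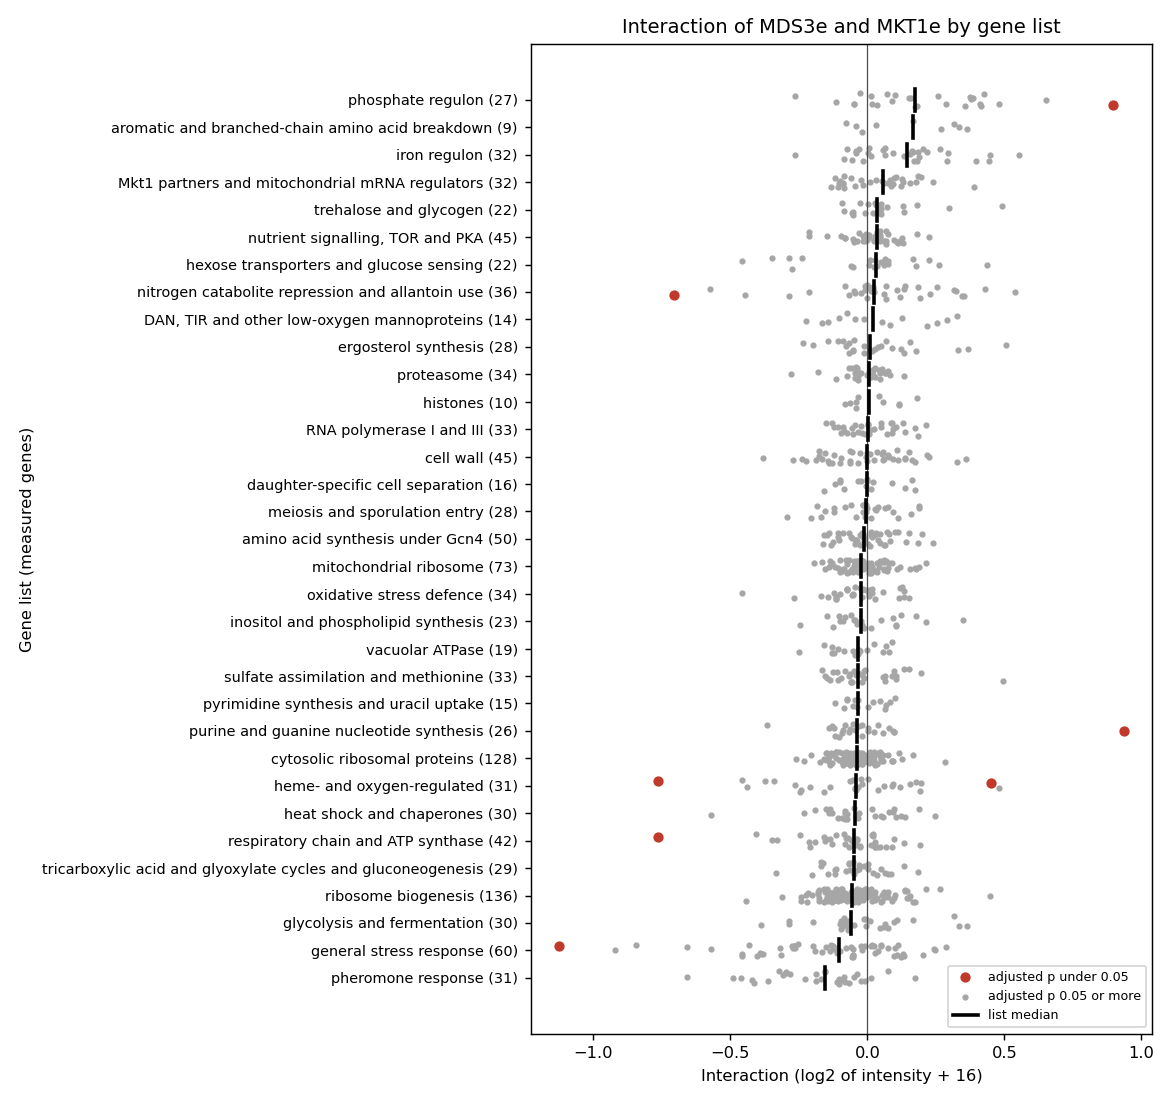
The interaction of each measured gene (points, log2 of intensity plus 16) is plotted for 33 gene lists, with the median of each list as a bar and the genes that passed the test in red. The phosphate list has the highest median, 0.17, and the pheromone response list the lowest, -0.16.

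The genes just above the threshold were not counted as changed. They include PHO81, the external NADH dehydrogenase gene NDE1 at -0.41 (limma adjusted p = 0.053), HSP30, the phosphoglycerate mutase-like gene GPM2 at 0.38 (adjusted p = 0.057), NCA3 at -0.67 (adjusted p = 0.068) and the ATPase gene VPS4 of membrane protein sorting at 0.43 (adjusted p = 0.072). NDE1 read 9.21 and 9.23 in Ancestral, 10.13 and 10.16 in MKT1e, 9.48 and 9.56 in MDS3e, and 10.06 and 10.03 in MDS3e MKT1e. The order of its genotypes was near that of CYC1. The calls ANB1, at an adjusted p of 0.048, and OPT2, at 0.035, lay just inside.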

How the data were processed

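Total RNA of 10 cultures was read on Affymetrix arrays, 1 array a culture. The deposited values are intensity values on a linear scale, made by the authors with Affymetrix Expression Console, per the submitters' processing notes. No source used here states the algorithm, the scaling or the genome build. The mean of each array, after trimming 2% at each end, was 150.07 to 150.08, as the values show. A value of 16 was added before log2, which shrinks the differences of dim genes.

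The table has 10928 probe sets, and 3683 of them have no entry in the platform annotation used. A single gene is given for 7244, which split into 1746 for another species and 5498 for S. cerevisiae, and several genes for 1. The brightest probe set was used for 47 genes with several, leaving 5449 genes, 114 of them with a shared probe set. Symbols and gene order come from the R64 annotation.

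limma 3.58.1 in R 4.3.3 was run with a mean for each genotype over all 10 arrays and a moderated test, two-sided, with Benjamini-Hochberg adjustment over 5449 genes at 0.05. The residual degrees of freedom were 5. On simulated data for this comparison (20 simulations, 200 changed of 5449 genes) the fit recovered 30.5% of 1.25-fold interactions, 94.2% of 1.5-fold and 99.9% of 2-fold, with 4.76% false calls. The simulated noise was normal and independent between genes and arrays, with the spread of each gene as the fit estimated it. Noise shared between genes was not simulated, so these shares hold for that setting only. The data had 21 calls, and with fewer calls the unadjusted p needed to pass is lower than in these simulations. Recovery in the data may therefore be lower, and it was not simulated at that number of calls. The genes, lists and tests were chosen with earlier results of these data known. Named genes were the evolved genes, up to 15 called genes in each direction whose array differences did not overlap, and up to 4 called members of each list; others are said to be chosen after their values were seen, or are members of a list or near the threshold. Lists are described by counts and medians. Alternatives covered normalization, the pseudocount, the linear scale, variance models, probe set choice, filters, a replicate block and leaving out each array. No promoter or protein sequences were used here.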

Additional observations from a re-analysis of the deposited data

Results flagged for a closer look

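The effect of MKT1e differed between the ancestral and the MDS3e background in 21 genes by the interaction term itself (limma, adjusted p under 0.05). Each value is the log2 effect of MKT1e in the MDS3e background minus that in the ancestral background, from 2 arrays a genotype. Only the MDS3e MKT1e strain carries both alleles, so any other difference of that strain cannot be told apart from the interaction. Lower in the strain with both alleles than the sum were TKL2 (-1.13), PAU4 (-1.08), YGR109W-A (-1.03), YLL066W-B (-0.96), CYC1 (-0.76), PAU18 (-0.72), OPT2 (-0.71), AIF1 (-0.70), YNL195C (-0.60) and ENT4 (-0.56). On the chromosome III segment the values were -0.85 for MAK31, -0.84 for SLM5, -0.84 for RHB1, -0.79 for NPP1, -0.78 for MAK32, -0.71 for YCR023C and -0.64 for PET18. Higher than the sum were IMD2 (0.94), PHO5 (0.90), PLB2 (0.56) and ANB1 (0.45). The call was kept in 10 of 10 fits that left out an array for 12 of the 21, of which 7 lie on the segment and 5 outside it (AIF1, PHO5, TKL2, YGR109W-A and YLL066W-B), and 9 were lost at least once.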

How the results depend on the processing

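The 2 arrays a genotype set the limit here, and dim genes have shrunken differences. Of 534 pairs of a called gene and an alternative, 446 kept direction and call, 87 kept direction without the call and 1 changed sign. The 21 calls became 34 on the linear scale (12 higher) and 11 without the chromosome III segment (8 lower), an alternative added after the data were seen. At an adjusted p under 0.01 there were 12 calls, 1 higher and 11 lower, and without shared probe sets 2 were higher. Leaving out 1 array at a time gave 13 to 24 calls, 1 to 7 higher and 11 to 18 lower. Those fits take the spread of a genotype left with 1 array from the remaining genotypes. They include the fits without a PMA1e MKT1e array, in which the interaction values stay the same and only the spread changes. The other settings gave 15 to 26 calls. Signs changed for IMD2 on the linear scale (-22.8), for MKT1 without Ancestral replicate 1 (-0.070, range -0.07 to 0.33 over such fits) and for PMA1 after quantile normalization (0.0079), and the cause was not tested. With the replicate number as a replicate block there were 22 calls, 20 of them among the 21, with ANB1 lost. Deviations of same-numbered arrays correlated at 0.19 to 0.39 among Ancestral, MKT1e and MDS3e, and at -0.20 to -0.14 between each of these and MDS3e MKT1e, so the numbers were not taken to pair the cultures of all 4 genotypes. The replicate block used the numbers as labelled, and a pairing with the numbers of MDS3e MKT1e swapped was not tested.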

Other observations

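Among lists not described above, the 9 measured genes of aromatic and branched-chain amino acid breakdown had a median interaction of 0.17. That median ran from 0.12 to 0.20 over fits that left out an array. Of the 9, 0 were called by limma, against 0.385% of all genes, and 1 had an unadjusted p under 0.05, against 7.10%. Of 22 hexose transporter and glucose sensing genes 0 were called, against 0.385% of all genes. At an unadjusted p under 0.05 there were 6, 4 lower and 2 higher, against 7.10% of all genes. The transporter gene HXT5 had an interaction of -0.46 and the invertase gene SUC2 one of 0.26, and neither passed the test over all genes.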
